A study of Mus musculus with 6 samples.

Results

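The genes described here are 9 genes of Gdnf-Ret signalling and of the ureteric tip, namely Gdnf, Gfra1, Ret, Etv4, Etv5, Spry1, Dusp6, Sox8 and Sox9. They were taken by name from the deposited table of 22394 genes, and all 9 were found and passed the filter on low values. Their levels were read in 6 mRNA-seq libraries of whole kidneys from mouse embryos at E13.5. In the 3 mutants (Foxd1Cre;Ptch1 flox/-), 1 Ptch1 allele was floxed and the other was null, and Foxd1Cre was present. The 3 controls (Ptch1 flox/+) were littermates with a floxed and a wild-type allele and, by their label, no Cre. Ptch1 encodes the receptor that holds the Hedgehog pathway off, and Foxd1 drives Cre in the stromal progenitors of the kidney, not in the ureteric bud. By these genotypes the mutants also had a null Ptch1 allele in every cell, so the effects of Cre, of that allele and of deletion in the stroma cannot be told apart. The kidneys were collected as pairs, and the labels do not state whether each library came from 1 embryo. If it did not, p-values would measure only the spread between these libraries. In bulk RNA of this kind, fewer cells of a type and less RNA per cell cannot be told apart.

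In the developing kidney, the metanephric mesenchyme around the ureteric bud secretes the growth factor Gdnf. Gdnf binds the GPI-anchored co-receptor Gfra1 and the receptor tyrosine kinase Ret on the bud tip, and Ret signals through the ERK and PI3-kinase pathways to drive outgrowth and branching. The ETS factors Etv4 and Etv5 are switched on in the tip downstream of Ret. Spry1 and Dusp6 encode feedback inhibitors of receptor tyrosine kinase and ERK signalling. The related HMG-box factors Sox8 and Sox9 are needed in the bud for normal tip gene expression, although Sox9 is also made in many other embryonic tissues, cartilage and testis among them.

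Etv4, Etv5 and other ETS factors bind DNA around a GGAA core. The promoters of the feedback genes are shown because these 2 genes are common readouts of ERK signalling and were measured side by side here. Each run is the 250 bases before the gene's start, on the plus strand, from RefSeq (build GRCm38.p6). Capitals mark GGAA (or its reverse complement TTCC) and CCAAT (or ATTGG), searched on both strands. The Spry1 run is chr3:37639697-37639946 and the Dusp6 run is chr10:99262981-99263230.
Spry1: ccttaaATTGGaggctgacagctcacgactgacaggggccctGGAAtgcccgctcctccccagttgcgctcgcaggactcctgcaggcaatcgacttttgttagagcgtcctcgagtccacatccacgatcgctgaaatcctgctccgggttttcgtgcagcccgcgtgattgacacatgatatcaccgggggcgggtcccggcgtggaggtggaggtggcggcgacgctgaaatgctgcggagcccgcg
Dusp6: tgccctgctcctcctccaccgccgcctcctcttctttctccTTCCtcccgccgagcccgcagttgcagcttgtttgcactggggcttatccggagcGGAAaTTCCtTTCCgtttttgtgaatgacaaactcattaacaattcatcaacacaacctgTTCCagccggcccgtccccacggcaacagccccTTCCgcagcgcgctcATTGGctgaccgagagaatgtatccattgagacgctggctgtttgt
The Spry1 run held 1 GGAA match and the Dusp6 run held 6, and each held 1 CCAAT match. GGAA is short and was found in 93.4% of 32851 mouse promoters of the same length, so its presence does not mark out these genes, while CCAAT was found in 33.8%. Of the 9 genes, 6 had a promoter in the RefSeq table (Gdnf, Gfra1, Etv5, Spry1, Dusp6 and Sox8). None of these 6 held the longer ETS word CCGGAAGT (2.88% of all promoters) or the GLI word GACCACCCA (0.225%), and Gdnf held TATAAA (12.4%). These are matches of letters in a short window, and binding was not measured.

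Sequencing depth was 21015151, 13261588 and 47847925 reads in mutants 1 to 3, against 21644399, 24962204 and 25416896 reads in controls 1 to 3, and the 9 genes each had between 117 and 6562 reads in every library. Control 2 stood apart, having a score of 75.8 on the leading principal axis (39.4% of variance), with the other 5 libraries between -24.6 and 8.49. Levels are in FPKM, which correct reads for the length of the gene and the depth of the library. Ptch1, which is both the targeted gene and a Hedgehog target, was at 23.5, 35.8 and 29.8 FPKM in the mutants, against 8.26, 7.91 and 7.6 FPKM in the controls (log2 fold change 1.89, SE 0.16, limma adjusted p = 0.00443). Reads summed over the gene do not check the deletion. Foxd1, the gene whose promoter drives Cre, overlapped between groups at 49.4 ± 12.8 FPKM in mutants and 63.2 ± 27.7 FPKM in controls (SD, n = 3 each). Both groups expressed the kidney genes Six2, a factor of nephron progenitors, at 118 to 125 FPKM in mutants and 97.9 to 176 FPKM in controls, and Wnt11, a tip ligand gene, at 16.6 to 22.6 FPKM in mutants and 14.7 to 20.9 FPKM in controls. Sex was not balanced, since the Y-linked gene Ddx3y was at 13.9 to 16.2 FPKM in all 3 mutants and at 17.8 FPKM in control 2, but at 0.0598 and 0.0177 FPKM in controls 1 and 3. Mutant 3 also had the X-linked RNA Xist at 6.19 FPKM, beside 0.103 and 0.206 FPKM in mutants 1 and 2, where controls 1 to 3 had 72.9, 0.0471 and 53.3 FPKM. The part of sex in the values below was not tested. Fits that leave out control 2 set mutants with Ddx3y against controls 1 and 3, which almost lack it. In those fits genotype and Ddx3y cannot be told apart.

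Most of the Gdnf-Ret axis had overlapping levels in mutant and control kidneys. The ligand, the co-receptor, the receptor, both ETS factors, both feedback genes and Sox8 overlapped between the groups, and none passed limma over all genes tested. Sox9 was the exception to this overlap. Each mutant library had more Sox9 than any control library, with a mean of 32.3 ± 1.07 FPKM in mutants and 19.6 ± 6.34 FPKM in controls (SD, n = 3 each), but it did not pass the same test (adjusted p = 0.321). The test was limma on log2(normalized count + 1), where a call is a Benjamini-Hochberg adjusted p under 0.05 over all genes tested. It called 0.307% of 16933 genes (52 genes, 0.219% higher and 0.0886% lower in mutants) and 0 of the 9 members. The unadjusted p was under 0.05 for 9.63% of all genes and for 1 of the 9 members, Sox9. Groups did not overlap in 16.7% of all genes (7.57% with all mutants higher, 9.09% with all mutants lower) and in 1 of the 9 members. Fold changes were positive for 6 members and negative for 3, with a median log2 fold change of 0.04.

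**Figure D1:**
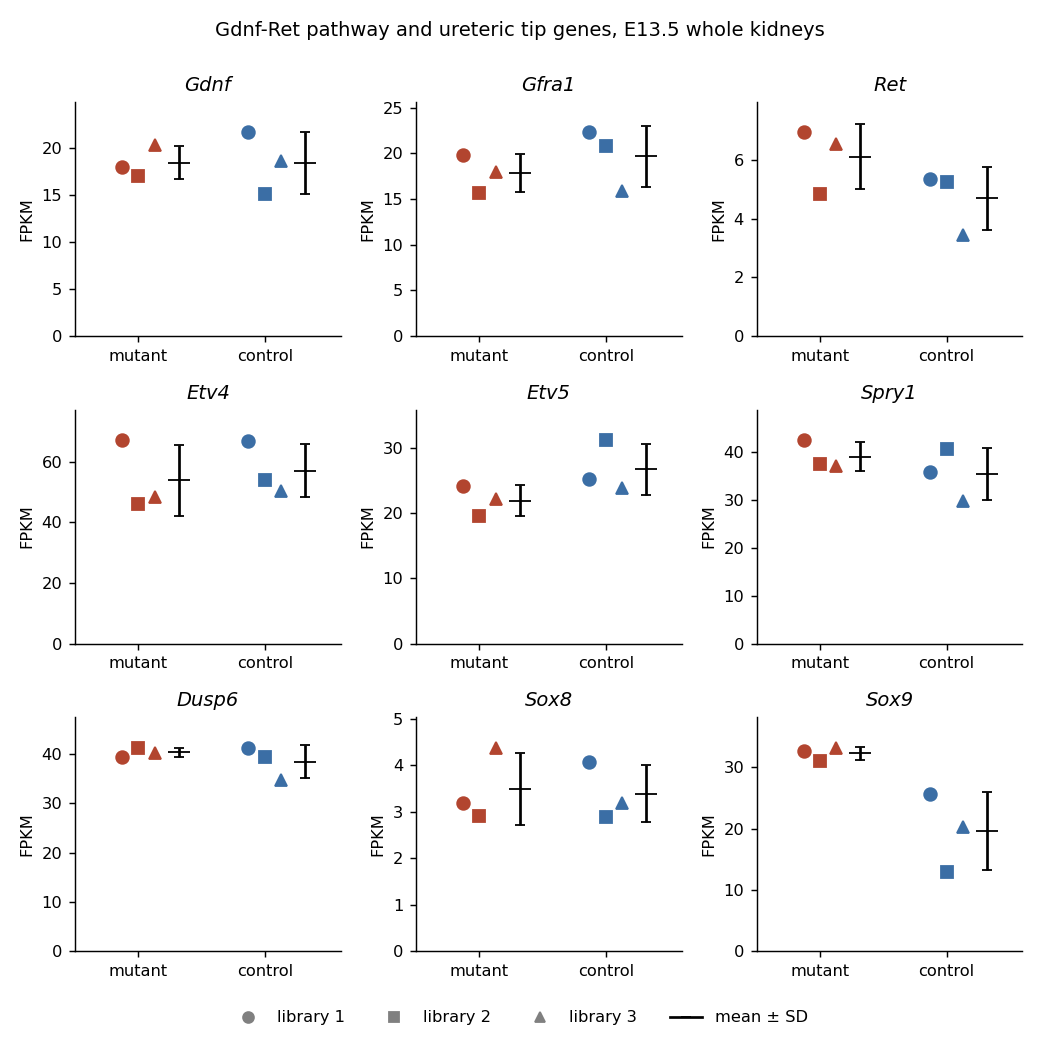
FPKM of the 9 genes in each library (y axis from 0), with mutants in red on the left and controls in blue on the right of each panel, library numbers by symbol, and the mean ± SD (n = 3) in black. Sox9 is the panel in which the mutants, at 31.1 to 33.2 FPKM, all sit above the controls, at 13.0 to 25.6 FPKM.

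Gdnf, the mesenchymal ligand (ENSMUSG00000022144.3, chr15:7810846-7837575, plus strand, GRCm38), was at 18.0, 17.0 and 20.4 FPKM in mutants, against 21.7, 15.1 and 18.6 FPKM in controls. Controls held both the highest and the lowest value, and the means were 18.5 ± 1.74 FPKM in mutants and 18.5 ± 3.27 FPKM in controls. The log2 fold change was 0.01 (SE 0.15, 95% interval -0.34 to 0.36, limma adjusted p = 0.982). Its sign was negative without control 2 (-0.12) or mutant 3 (-0.06), so the data gave no direction for it.

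Gfra1, the co-receptor gene (ENSMUSG00000025089.15, chr19:58235604-58455909, minus strand), was at 19.8, 15.7 and 18.0 FPKM in mutants, against 22.3, 20.8 and 15.9 FPKM in controls. The lowest control lay within the mutants' range, and the log2 fold change was -0.13 (SE 0.16, 95% interval -0.50 to 0.23, limma adjusted p = 0.755). With library weights it was 0.00, with a positive sign. It was -0.28 without control 3, the lowest control, and -0.035 without control 1. Ret, the signalling receptor (ENSMUSG00000030110.13, chr6:118151745-118197718, minus strand), was at 6.95, 4.85 and 6.56 FPKM in mutants, against 5.37, 5.26 and 3.45 FPKM in controls. Mutants 1 and 3 were above all controls, while mutant 2 was below controls 1 and 2. Ret had a log2 fold change of 0.40 (SE 0.21, 95% interval -0.09 to 0.88, limma adjusted p = 0.567), and without control 3, the lowest library, it was 0.19. For Ret, the authors' deposited table held 0.49 as the log2 fold change, with 0.315 as its adjusted p.

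The tip transcription factor Etv4 (ENSMUSG00000017724.14, chr11:101769742-101785371, minus strand) had the highest level of the 9 genes. It was at 67.2, 46.1 and 48.3 FPKM in mutants, against 66.9, 54.0 and 50.3 FPKM in controls. Mutant 1 and control 1 held the highest values, and the log2 fold change was -0.09 (SE 0.18, 95% interval -0.50 to 0.31, limma adjusted p = 0.851). Its sign was positive without control 1 (0.03) or mutant 2 (0.01). Etv5 (ENSMUSG00000013089.15, chr16:22381309-22439719, minus strand), which acts together with Etv4 in branching, was at 24.1, 19.5 and 22.2 FPKM in mutants, against 25.2, 31.2 and 23.8 FPKM in controls. Only control 3 fell inside the mutants' range. Etv5 had the most negative fold change of the 9, at -0.28 (SE 0.14, 95% interval -0.61 to 0.05, limma adjusted p = 0.555), and it was -0.16 without control 2, the highest library.

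Spry1 (ENSMUSG00000037211.12, chr3:37639947-37644598, plus strand), an inhibitor of Ret signalling in the bud, was at 42.4, 37.4 and 36.9 FPKM in mutants, against 35.8, 40.5 and 29.8 FPKM in controls. The groups overlapped through control 2, with a log2 fold change of 0.15 (SE 0.14, 95% interval -0.17 to 0.47, limma adjusted p = 0.701). The value was 0.029 without control 3 and 0.25 without control 2. Dusp6, the ERK phosphatase gene (ENSMUSG00000019960.8, chr10:99263231-99267489, plus strand), was at 39.5, 41.3 and 40.2 FPKM in mutants, against 41.2, 39.4 and 34.8 FPKM in controls. It was the steadiest of the 9 genes, with a highest value 1.19 times the lowest over the 6 libraries and a log2 fold change of 0.07 (SE 0.11, 95% interval -0.19 to 0.33, limma adjusted p = 0.817), which was 0.001 without control 3.

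Sox8 (ENSMUSG00000024176.10, chr17:25565892-25570686, minus strand) was the lowest of the 9, at 3.19, 2.92 and 4.38 FPKM in mutants, against 4.08, 2.90 and 3.20 FPKM in controls. Its groups overlapped, with a log2 fold change of 0.04 (SE 0.22, 95% interval -0.47 to 0.54, limma adjusted p = 0.961). The sign was negative under quantile normalization (-0.04) and without control 2 (-0.07) or mutant 3 (-0.14). Sox8 is overlapped on the opposite strand by 2810468N07Rik, which was at 2.81 to 4.04 FPKM in mutants and 2.16 to 2.92 FPKM in controls. The sources used here do not say whether counting was by strand, so reads of this pair cannot be told apart and the Sox8 value is uncertain. Spry1 and Gfra1 also have an overlapping gene on the opposite strand. The one at Spry1, Gm42922, was at 0.395 to 0.432 FPKM in mutants and 0.441 to 0.529 FPKM in controls, and the one at Gfra1, Gm16277, was not analysed here.

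Sox9 (ENSMUSG00000000567.5, chr11:112782224-112787760, plus strand) was at 32.6, 31.1 and 33.2 FPKM in mutants, against 25.6, 13.0 and 20.3 FPKM in controls. The mutants lay close together and the controls were spread, with control 2 lowest. On the log2 scale the SD was 0.05 in mutants and 0.50 in controls. The mean level was 1.65 times as high in mutants, and the log2 fold change was 0.78 (SE 0.22, 95% interval 0.27 to 1.28, unadjusted p = 0.00764, limma adjusted p = 0.321), which ranked 403rd by p among the 16933 genes. Without control 2, the library that stood apart, the log2 fold change was 0.50 (adjusted p = 0.174). All 3 mutants lay above both of the remaining controls, as the values above already imply. In the fit without control 2, genotype and the Y-linked Ddx3y cannot be told apart.

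For Sox9, the authors' deposited table held 1.04 (SE 0.20) as the log2 fold change and 2.01e-05 as the adjusted p. It called 4.61% of the 15881 genes that had an adjusted p, 3.07% higher in mutants, and 1 of the 9 members, Sox9. The 2 analyses use different tests and also weigh the libraries differently, and the part of each in the differing results was not tested. Over 2898 well measured genes, a regression of the deposited fold changes on the 6 libraries gave control 1 a weight of 0.02, against -0.56 for control 2 and -0.46 for control 3. Control 1, which has the highest Sox9 level of the controls, thus contributed almost nothing to the deposited fold changes. These weights are close to those of a fit with a covariate of 3 levels that holds control 1 alone, control 3 with mutant 3, and control 2 with mutants 1 and 2. The labels and headers name no such covariate, and the grouping was found by trying many groupings of the libraries until one matched, after the deposited values had been seen. Across these levels Xist was at 72.9 FPKM, then 53.3 and 6.19 FPKM, then 0.0471, 0.103 and 0.206 FPKM, in the order just given. Ddx3y differed within a level, at 0.0177 FPKM in control 3 and 13.9 FPKM in mutant 3. Whether the term stands for sex was not tested.

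With this 3-level term added to limma, which called 1.27% of all genes, Sox9 had a log2 fold change of 1.05 (SE 0.17, 95% interval 0.67 to 1.43, adjusted p = 0.0271). The term was picked to match the deposited fold changes, so a value near the deposited 1.04 is no separate evidence. In that fit control 1 has no weight. Within the levels, the mean of mutants 1 and 2 was 1.30 above control 2 and mutant 3 was 0.71 above control 3 (differences in log2 level). The mean of the 3 mutants was 0.34 above control 1. Sox9 was thus higher in mutants against each control, by amounts that differed between controls. The same term moved none of the other 8 members past the threshold. Ret had a log2 fold change of 0.48 (adjusted p = 0.301), Etv5 of -0.34 (0.308), Gdnf of 0.18 (0.539) and Sox8 of 0.24 (0.598).

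**Figure D2:**
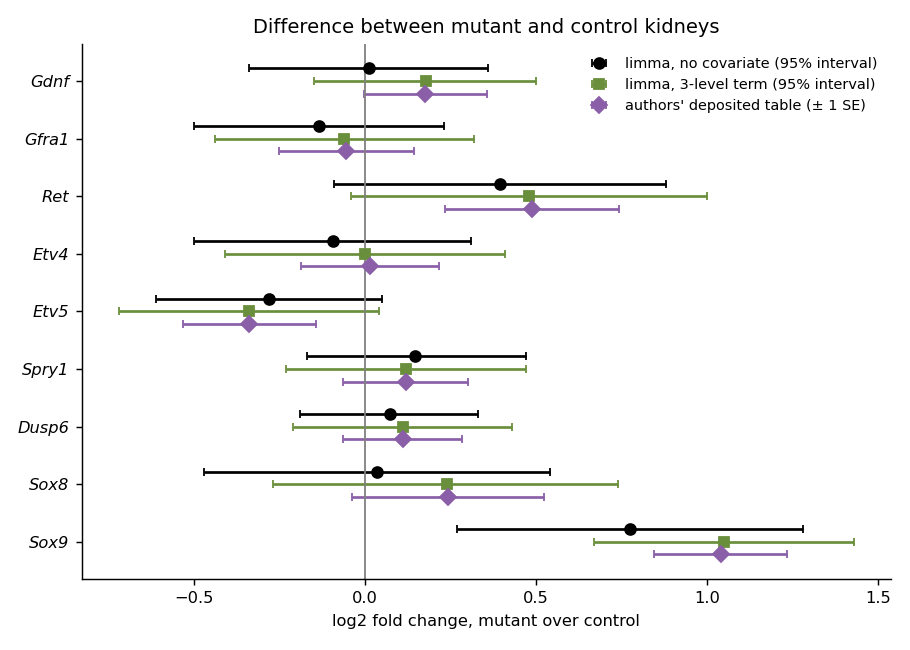
Log2 fold change of mutant over control for the 9 genes (x axis), from limma with no covariate (black circles, 95% interval), from limma with the 3-level term (green squares, 95% interval) and from the authors' deposited table (purple diamonds, ± 1 SE). For Sox9 the intervals lie above 0, at 0.27 to 1.28 with no covariate and 0.67 to 1.43 with the term, while the intervals of the other 8 genes span 0.

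**Figure D3:**
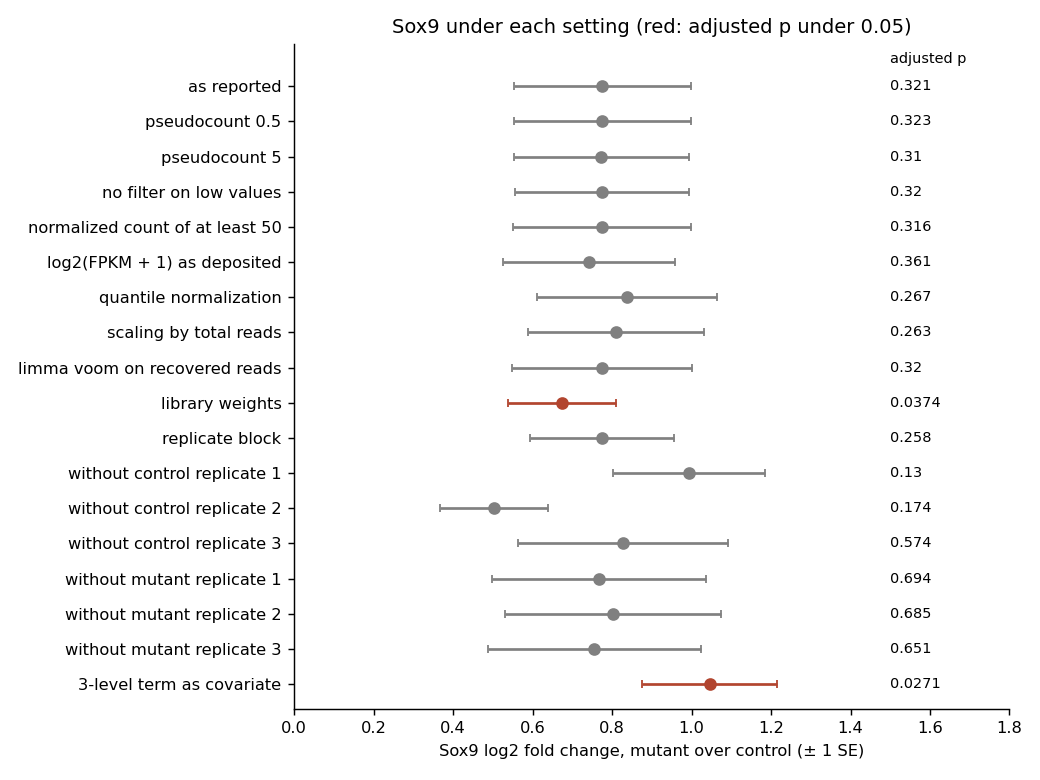
Log2 fold change of Sox9, mutant over control (x axis, ± 1 SE), as reported and under 17 alternatives, with the limma adjusted p at the right. The value lies between 0.50 and 1.05 and is positive throughout, and the adjusted p is under 0.05 with library weights (0.0374) and with the 3-level term (0.0271), both shown in red.

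Sox9 is not particular to the ureteric bud, so markers of other tissues that make it are given beside it. In whole-kidney RNA the reads of the other members were not assigned to a cell type either. Of the 11 cartilage genes listed, 9 were tested and 0 were called, and their summed level was 46.5 to 59.0 FPKM in mutants and 20.7 to 60.4 FPKM in controls. At an unadjusted p under 0.05, 2 of the 9 were higher in mutants (9.63% of all genes had such a p in either direction), and the authors' deposited table called 2 as higher, Col2a1 and Col9a3. The cartilage collagen gene Col2a1, a known Sox9 target, was at 20.5, 22.8 and 26.8 FPKM in mutants, against 36.5, 7.99 and 20.4 FPKM in controls, so its lowest library was the same control 2. For Col2a1 the limma adjusted p was 0.774, while in the authors' deposited table it was 0.00187 with 0.97 as the log2 fold change. Acan, which encodes the core cartilage proteoglycan, was at or under 0.0805 FPKM in mutants and 0.0542 FPKM in controls. Of 11 Sertoli cell and testis genes, 9 were in the table and 0 of 5 tested were called (8.38 to 9.65 FPKM summed in mutants, 7.03 to 8.46 FPKM in controls), with the Sertoli hormone gene Amh at 0.639 to 0.761 FPKM in mutants and 0.406 to 0.609 FPKM in controls. Of 10 neural crest and chromaffin genes tested, 0 were called and 6 had an unadjusted p under 0.05 (all higher in mutants). In 4 of the 10, all mutants were above all controls (7.57% of all genes). The list summed to 9.82 to 30.2 FPKM in mutants and 7.25 to 12.5 FPKM in controls. The authors' deposited table called 6 of this list as higher in mutants, and 1 each of the Sertoli and glial lists. Over all genes with an adjusted p, it called 3.07% as higher in mutants. With the 3-level term, limma called the catecholamine enzyme gene Dbh (2.82, adjusted p = 0.0482) and the granule protein gene Chga (2.35, adjusted p = 0.038), and Fgf9 of the Sertoli list (1.16, adjusted p = 0.0482), all as positive log2 fold changes. That fit called 1.02% of all genes as higher in mutants. Glial genes summed to 29.9 to 34.5 FPKM in mutants and 21.4 to 34.1 FPKM in controls, with 0 of 6 called and the crest factor Sox10 at or under 1.03 FPKM in mutants and 0.22 FPKM in controls. The median log2 fold change was -0.05 for the cartilage list, 0.35 for Sertoli, 1.52 for neural crest and 0.62 for glia, against -0.01 over all genes. The part of these tissues in the values of Sox9, Ret or the other members was not tested.

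Markers of the ureteric epithelium, the tissue in which Ret acts, were read in the same libraries. Of 13 epithelial genes, 0 were called and 2 had an unadjusted p under 0.05, as had 9.63% of all genes tested. Their summed level was 466, 259 and 232 FPKM in mutants, against 196, 362 and 175 FPKM in controls. Mutant 1 and control 2 were the libraries with the highest sums, and the groups overlapped. The list's median log2 fold change was 0.49, against -0.01 over all genes tested. The trunk genes followed the same libraries, at 84.2, 38.3 and 36.1 FPKM in mutants, against 25.4, 72.0 and 21.9 FPKM in controls. Sox9 was lowest in control 2, where the epithelial sum was the highest of the controls. Nephron progenitor genes, which mark the mesenchyme that makes Gdnf, summed to 340 to 390 FPKM in mutants and 307 to 453 FPKM in controls, with 0 of 10 called. Of these 10, 3 were lower and 1 was higher in mutants at an unadjusted p under 0.05 (9.63% of all genes in either direction). All mutants were below all controls in 3 of them (9.09% of all genes), and the median log2 fold change was -0.26. Without control 2, limma called 1 of them as lower in mutants, Meox1 (log2 fold change -0.75, adjusted p = 0.0351). That fit called 158 genes, 46 of them lower in mutants. In that fit genotype and Ddx3y cannot be told apart. Stromal progenitor genes, the lineage in which Foxd1Cre acts, summed to 682 to 862 FPKM in mutants and 617 to 984 FPKM in controls, with 0 of 11 called. Of these 11, 1 was lower and 1 was higher at an unadjusted p under 0.05, and the median was -0.10. The authors' deposited table called 2 as higher, against 3.07% of all genes with an adjusted p. With the 3-level term Ecm1 of this list was called (log2 fold change 0.93, adjusted p = 0.0431), as were 1.02% of all genes as higher in mutants. The part of these cell types in the members' values was not tested.

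**Figure D4:**
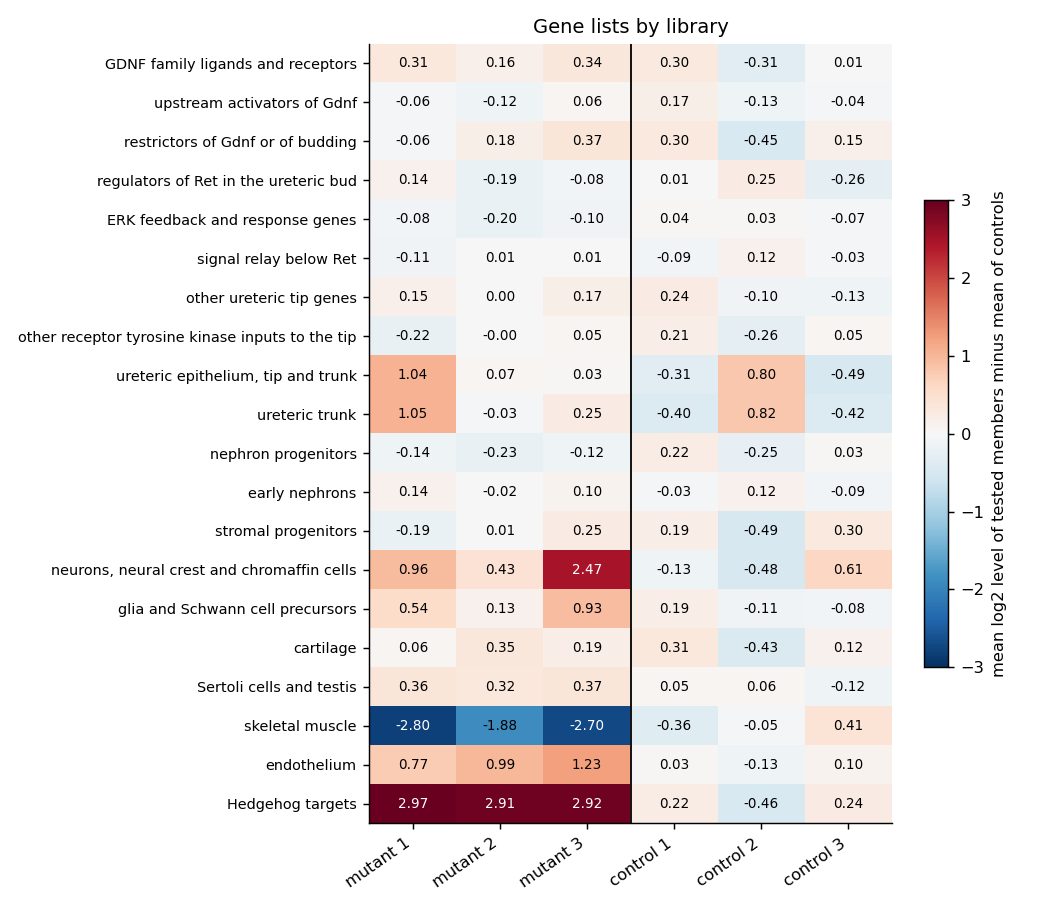
Score of each of 20 gene lists (rows) in each library (columns, mutants left of the line and controls right), as the mean over tested genes of the log2 level minus the mean of the 3 controls. The 8 pathway and tip lists at the top stay between -0.45 and 0.37 in every library, while the epithelial and trunk lists are high in mutant 1 (1.04 and 1.05) and control 2 (0.80 and 0.82).

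Ratios within a library do not depend on how that library was scaled. Gfra1 over Ret, both parts of the receptor complex, had log2 ratios of 1.28, 1.46 and 1.22 in mutants, against 1.82, 1.75 and 1.97 in controls, so every mutant lay below every control. The difference was -0.53 (SE 0.10). Etv4 over Ret (difference -0.49, SE 0.19), Etv5 over Ret (-0.67, SE 0.18) and Sox8 over Sox9 (-0.74, SE 0.23) were also below every control in all 3 mutants. Each of these 4 had a two-sided exact permutation p of 0.1, which is the smallest that 3 against 3 libraries allow, so none could pass 0.05. Adjusted over the 11 ratios computed, the p was 0.275. The 3 ratios over Ret share a denominator and are not independent of one another.

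The remaining ratios over Ret overlapped between groups, with differences of -0.38 for Gdnf, -0.36 for Sox8, -0.32 for Dusp6, -0.25 for Spry1 and 0.38 for Sox9 (exact permutation p of 0.3 to 0.5). Etv4 over Etv5 differed by 0.19 (SE 0.21, exact permutation p = 0.4). Ret set against the mean log2 level of the epithelial list differed by 0.01 (SE 0.42, exact permutation p = 1). By this measure Ret and the epithelium differed between groups by similar amounts, with an error too wide to show that they moved alike.

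**Figure D5:**
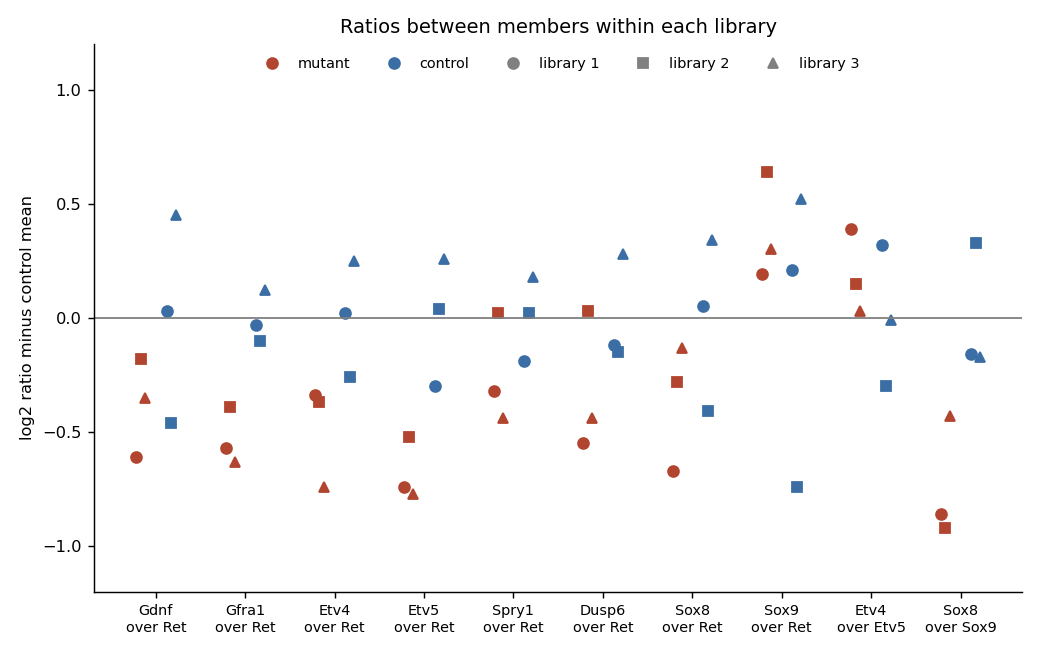
Log2 ratios between members in each library, minus the mean of the 3 controls (y axis), for mutants (red, left in each pair) and controls (blue, right), with library numbers by symbol. All 3 mutants lie below all 3 controls for Gfra1, Etv4 and Etv5 over Ret and for Sox8 over Sox9.

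Levels per unit of gene length can be ordered within a group. In mutants the order by mean FPKM was Etv4 (53.9 ± 11.6), Dusp6 (40.3 ± 0.93), Spry1 (38.9 ± 3.04), Sox9 (32.3 ± 1.07), Etv5 (21.9 ± 2.27), Gdnf (18.5 ± 1.74), Gfra1 (17.8 ± 2.04), Ret (6.12 ± 1.12) and Sox8 (3.50 ± 0.781). Of these neighbours, Dusp6 and Spry1, Etv5 and Gdnf, and Gdnf and Gfra1 had overlapping values over the 3 mutants. In controls the order was Etv4 (57.1 ± 8.72), Dusp6 (38.5 ± 3.32), Spry1 (35.3 ± 5.35), Etv5 (26.7 ± 3.94), Gfra1 (19.7 ± 3.37), Sox9 (19.6 ± 6.34), Gdnf (18.5 ± 3.27), Ret (4.69 ± 1.08) and Sox8 (3.39 ± 0.612). There only Etv4 and Dusp6, Etv5 and Gfra1, and Gdnf and Ret were separate from the next gene down. The ligand and its co-receptor were therefore at like levels in both groups, with Ret several times lower, and Sox9 held the fourth place in mutants and the sixth in controls.

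Over the 6 libraries, the members did not share a single pattern. Likeness was measured as the root mean square difference of centred log2 levels, where 0 is an identical pattern. The closest pairs were Gdnf and Sox8 (0.113), the feedback genes Spry1 and Dusp6 (0.121) and Gfra1 and Etv4 (0.133). In a search of 13259 genes whose normalized counts averaged 50 or more, the 5 nearest to Gdnf were Tmem214 (0.025), Mfsd14a, Tcf7l1, Fam8a1 and Gsk3a (0.047). Those nearest to Ret were Dsg2 (0.109), Vsig10, Bicdl1, Elovl6 and Cxcl14 (0.128), and among those nearest to Etv4 were Hoxb3os (0.045), Thumpd2, Bcdin3d and Hoxb5os (0.057). Dsg2 encodes a desmosomal cadherin of epithelia, and its level was 1.57, 1.02 and 1.34 FPKM in mutants, against 1.18, 1.32 and 0.847 FPKM in controls. Sox9 was added to this search after its values had been seen. Its nearest genes were Serinc2 (0.086), Il2rg, Tcf15, Olfm2 and Gpx7 (0.098). Each was lowest in control 2, as was Sox9, which follows from searching for genes with the pattern of Sox9. Tcf15, a bHLH factor, was at 26.2, 25.9 and 24.7 FPKM in mutants, against 20.4, 11.2 and 14.5 FPKM in controls.

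Around the 9 genes, 8 lists of pathway and tip genes held 116 different genes, of which 111 were tested. Of the 9 members, 7 were in these lists, all but Sox8 and Sox9. None passed limma over all genes. An unadjusted p under 0.05 was found for 13 (5 higher and 8 lower in mutants), or 11.7%, near the 9.63% of all genes. Groups did not overlap for 18 (16.2%), close to the 16.7% of all genes, and the median log2 fold change was -0.04. The authors' deposited table called 10 of the 111 (9.01%), against 4.61% of all genes.

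Among the ligands and receptors of the family (0 of 9 tested called), Artn, which encodes artemin, was at 1.51, 1.75 and 1.9 FPKM in mutants, against 0.758, 0.953 and 0.673 FPKM in controls. All mutants were above all controls (log2 fold change 1.10, SE 0.26, limma adjusted p = 0.198). Nrtn, the neurturin gene, was at 10 ± 3.43 FPKM in mutants and 6.75 ± 1.30 FPKM in controls, and its groups overlapped (adjusted p = 0.549).

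Of 17 genes listed as upstream of Gdnf, 0 were called. An unadjusted p under 0.05 was found for 3, all lower in mutants (9.63% of all genes in either direction), and these 3 are given. All mutants lay below all controls in 4 of the 17, these 3 among them (9.09% of all genes). Wt1, the Wilms tumour factor, was at 42.5, 43.9 and 43.6 FPKM in mutants, against 58.9, 68.3 and 63.5 FPKM in controls (log2 fold change -0.55, SE 0.11, limma adjusted p = 0.112). Wt1 passed in the authors' deposited table (adjusted p = 0.0104), and it passed limma with library weights, a fit that called 380 genes (102 lower in mutants). Eya1, a transcriptional co-activator needed for Gdnf expression, was at 18.9 ± 0.316 FPKM in mutants and 26.0 ± 2.65 FPKM in controls (adjusted p = 0.242). The paired-box factor Pax2, which acts on Gdnf in the mesenchyme and on Ret in the bud, was at 39.5 ± 3.20 FPKM in mutants and 52.4 ± 5.96 FPKM in controls (adjusted p = 0.401). Gdnf itself overlapped between groups in the same libraries, as given above.

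Among the genes that restrict Gdnf or budding (0 of 10 called), Bmp4 is a secreted inhibitor of bud outgrowth and also a known Hedgehog target. It was at 37.3, 28.5 and 31.5 FPKM in mutants, against 23.3, 13.9 and 19.2 FPKM in controls, with no overlap (limma adjusted p = 0.22, log2 fold change 0.81, SE 0.20). In the authors' deposited table its adjusted p was 3.62e-04, and it passed limma with library weights (380 genes called) and with the 3-level term (215 genes called). Bmp7 followed in this list, at 24.7 ± 3.32 FPKM in mutants and 29.0 ± 5.04 FPKM in controls (limma adjusted p = 0.628).

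Regulators of Ret (0 of 11 called) included Gata3, a factor that maintains Ret in the duct, at 33.8, 23.3 and 21.9 FPKM in mutants, against 18.8, 17.3 and 10.5 FPKM in controls. All mutants were above all controls (limma adjusted p = 0.388, log2 fold change 0.78, SE 0.25), while its adjusted p was 0.00351 in the authors' deposited table. Aldh1a2, the stromal enzyme that makes the retinoic acid on which Ret expression depends, was at 166, 189 and 198 FPKM in mutants, against 285, 229 and 323 FPKM in controls (log2 fold change -0.59, SE 0.16, limma adjusted p = 0.305). Both passed limma with library weights, a fit that called 380 genes. Ret, as given above, overlapped between groups.

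Feedback and response genes of ERK (0 of 19 called) had a median log2 fold change of -0.13. The immediate early gene Egr1 was at 4.98, 3.77 and 4.35 FPKM in mutants, against 6.06, 6.40 and 5.75 FPKM in controls (log2 fold change -0.48, SE 0.15, limma adjusted p = 0.369). Spsb4 was at 9.78 ± 0.875 FPKM in mutants and 13.2 ± 2.63 FPKM in controls (adjusted p = 0.487), and Myc at 40.1 ± 4.70 FPKM in mutants and 51.6 ± 9.86 FPKM in controls (adjusted p = 0.537). The Sprouty genes Spry2 and Spry4 are named here after their values were seen, to set beside Spry1. Spry2 had a log2 fold change of -0.35 and Spry4 of -0.24, against 0.15 for Spry1, and none of the 3 passed limma.

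Of the signal relay below Ret (0 of 24 called), the docking protein gene Gab1 was at 16.7, 24.3 and 24.3 FPKM in mutants, against 12.9, 12.2 and 14.9 FPKM in controls, with no overlap (log2 fold change 0.69, SE 0.17, limma adjusted p = 0.223). It passed in the authors' deposited table (adjusted p = 0.0152) and in limma with library weights (380 genes called). Dok4, which encodes an adaptor that binds Ret, was at 16 ± 0.208 FPKM in mutants and 13.7 ± 1.39 FPKM in controls (adjusted p = 0.569).

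The list of other tip genes (0 of 14 called) had a median log2 fold change of 0.11. In whole kidneys its genes, Kif26b among them, were not shown to come from the tip. Vsnl1 was at 2.30, 2.44 and 2.24 FPKM in mutants, against 1.76, 1.49 and 1.39 FPKM in controls (limma adjusted p = 0.471, log2 fold change 0.59, SE 0.22). The kinesin gene Kif26b was at 7.51 ± 0.88 FPKM in mutants and 9.76 ± 1.43 FPKM in controls (adjusted p = 0.487), and the transporter gene Slco4c1 at 3.12 ± 1.51 FPKM in mutants and 1.72 ± 0.562 FPKM in controls (adjusted p = 0.519). Wnt11, the tip ligand that acts back on Gdnf, had a log2 fold change of 0.26 with overlapping groups (adjusted p = 0.623).

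Of the other receptor tyrosine kinase inputs (0 of 12 called), Fgf20, a ligand from nephron progenitors, was at 2.93, 2.94 and 3.02 FPKM in mutants, against 4.44, 4 and 4.38 FPKM in controls. All mutants lay below all controls (log2 fold change -0.52, SE 0.19, limma adjusted p = 0.456). Hgf was at 0.772 ± 0.341 FPKM in mutants and 1.26 ± 0.362 FPKM in controls (adjusted p = 0.566), and Fgfr2, an FGF receptor of the bud, was at 31.4 ± 1.74 FPKM in mutants and 27.5 ± 2.65 FPKM in controls (adjusted p = 0.598). Both overlapped between groups.

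For contrast, the same fit called 6 of 8 Hedgehog target genes as higher in mutants (3 without mutant 1 and 3 without mutant 2), against 0.219% of all genes. It also called 4 of 8 endothelial genes as higher in mutants (1 without control 1 or 3, and 0 without any one mutant). Of 9 skeletal muscle genes, it called 4 as lower in mutants (2 without control 3 or any one mutant), against 0.0886% of all genes. The lowest adjusted p was that of the Hedgehog-binding protein gene Hhip, at 16.8, 18.3 and 23.2 FPKM in mutants, against 0.389, 0.229 and 0.435 FPKM in controls (log2 fold change 5.81, limma adjusted p = 9.17e-05). Whether these targets differ from the Gdnf-Ret genes was not tested.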

How the data were processed

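RNA was extracted with a micro column kit and mRNA libraries were made, per the labels' protocols. The authors' tools were DESeq2 1.26.0s, HTSeq 0.6.1p2, STAR 2.6.0c and Trim Galore, with build mm10, per the submitters' processing notes (roles not given). The deposited table held an FPKM column per library. That unit was taken from the values, since no header names it. It also held the authors' mean normalized signal, log2 fold change with SE, test score (Wald statistic), p-value and adjusted p-value, per the file headers.

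FPKM times mean normalized signal over mean FPKM gave normalized counts, of which 100% of 134364 were whole reads to within 1e-06. The main test was limma 3.58.1 (R 4.3.3, trend) on log2(normalized count + 1) of 16933 genes with at least 10 in 3 or more libraries, with Benjamini-Hochberg adjustment and a threshold of 0.05. The design had been written for deposited FPKM as well, which is an alternative. No count model was fitted, and limma voom on the recovered reads took its place. The test was checked on simulated data. FPKM are mean ± SD over 3 libraries. Intervals are 95%. The pseudocount understates changes of low genes.

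The 9 members, the gene lists and the tests were chosen with earlier results of these data known. From each list up to 4 called genes are named, or up to 3 with the smallest p where none was called. Exceptions are marked, and some genes that the rule names are not reported here. Groups came from the titles. Positions are from GENCODE M21 (GRCm38, the assembly of mm10) and promoters from RefSeq. Alternatives were other pseudocounts, filters and scalings, library weights, the replicate block and leaving out each library. The 3-level term was added after seeing the data, following a search over many groupings of the libraries for one that matched the deposited fold changes.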

Additional observations from a re-analysis of the deposited data

How the results depend on the processing

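Of 153 values of the 9 members under 17 alternatives, 143 kept their direction and their side of the threshold. Signs turned for Sox8 with quantile normalization (-0.035), Gfra1 with library weights (0.003), Etv4 without control 1 (0.027) or mutant 2 (0.008), Gdnf without control 2 (-0.125) or mutant 3 (-0.062) and Sox8 without control 2 (-0.07) or mutant 3 (-0.138). Over fits that left out 1 library, the log2 fold change ranged from -0.125 to 0.13 for Gdnf, -0.26 to 0.027 for Etv4, -0.138 to 0.18 for Sox8 and 0.50 to 0.99 for Sox9 (adjusted p 0.13 to 0.694). Sox9 passed the threshold with library weights (0.675, adjusted p = 0.0374) and with the 3-level term (1.046, adjusted p = 0.0271). The estimation of library weights stopped before its tolerance was reached, so that fit is less certain. It weighted control 2 least (0.333).

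Over all genes, 52 were called, against 380 with library weights, 215 with the 3-level term and, when 1 library was left out, 9 to 158 (12, 9 and 13 without mutants 1, 2 or 3, and 15, 158 and 19 without controls 1, 2 or 3). With library weights, 1 gene was called in the GDNF family list (Artn), 1 among upstream activators (Wt1), 1 among restrictors (Bmp4), 2 among regulators of Ret (Gata3 and Aldh1a2) and 1 in the relay (Gab1). With the 3-level term, 1 restrictor (Bmp4) and 1 tip gene were called, as were Ecm1, Dbh, Chga, Fgf9 and 7 endothelial genes of the cell type lists. The cause of these shifts was not tested, and without control 2 genotype and Ddx3y cannot be told apart.

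Deviations of same-numbered libraries from their group means correlated at 0.001, -0.098 and 0.309. With 3 libraries per group, these correlations cannot show whether the replicate numbers pair the libraries. With the replicate number as a block, 17 genes were called (13 higher, 4 lower) and none of the 9 members. Not every library correlated best with its own number. The number of libraries limits the precision, which the 95% intervals give.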

Other observations

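Several genes near the Gdnf-Ret axis passed in the authors' deposited table while their groups overlapped here, and these are given as values. They were chosen after their values were seen. Ncam1, an adhesion molecule that can bind Gdnf, was at 42.7, 41.3 and 53.7 FPKM in mutants, against 62.0, 18.5 and 47.4 FPKM in controls (adjusted p = 0.0229 in the authors' deposited table, 0.801 in limma). Mmp14, a membrane metalloproteinase gene, was at 104, 134 and 165 FPKM in mutants, against 141, 52.4 and 122 FPKM in controls (0.00276 in the authors' deposited table, 0.646 in limma). The atypical cadherin gene Fat4, which restricts budding from the stroma, was at 7.29, 12.9 and 13.4 FPKM in mutants, against 13.0, 4.53 and 10.3 FPKM in controls (0.0317 in the authors' deposited table, 0.734 in limma). Slit3 was at 6.33, 10.6 and 17.5 FPKM in mutants, against 10.3, 4.17 and 12 FPKM in controls (0.028 in the authors' deposited table, 0.746 in limma). In each of these 4 genes control 2 was the lowest library.

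Dusp4, an ERK phosphatase gene related to Dusp6, went the other way. It was at 2.13, 2.92 and 2.77 FPKM in mutants, against 2.49, 11.3 and 3.40 FPKM in controls, so 1 library, control 2, held the high value (adjusted p = 0.00922 in the authors' deposited table, 0.59 in limma). Dusp6 was at 39.4 FPKM in that library, near the other controls at 41.2 and 34.8 FPKM.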
